A study of Mus musculus with 18 samples.

Results

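Whole lenses of 2 day old Dbl transgenic mice were compared with those of 2 day old wild type (wt) mice, on 3 arrays of each group out of 18 arrays in all. The Dbl mice carry the cDNA of the Dbl oncogene under the mouse metallothionein (MT) promoter, and the wt mice carry no transgene. FVB/N embryos received the transgene, and carriers were then crossed with Balb/c, whereas the strain of the wt mice is given only as WT, so genotype and strain cannot be told apart. Each array held RNA of an independent pool of 4 to 8 lenses, and 12422 probe sets of the Affymetrix U74Av2 array were tested. The MT promoter is not specific to the lens, and in pooled whole lenses a smaller share of one cell type cannot be told apart from less RNA per cell.

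Dbl is a guanine nucleotide exchange factor, and its oncogenic form lacks the amino-terminal part that keeps it in check. Its signaling reaches the actin cytoskeleton, cell adhesion and the JNK and NF-kB pathways. In the lens, a single layer of epithelial cells divides near the equator and differentiates into fiber cells, which fill up with crystallins, lose their organelles and are sealed inside a collagen IV and laminin capsule. The lens holds no vessels, nerves or resident macrophages of its own once the fetal vasculature has regressed.

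Values are signals after each array was scaled to a trimmed mean of 500, and log2 fold changes are of Dbl over wt, with the standard error (SE) and the Benjamini-Hochberg adjusted p from limma over all 12422 probe sets. A signal under about 129, the mean 40th percentile of the arrays, is near background, and there the size of a fold is not exact. The 6 arrays did not group by label. Dbl replicate 2 was most like Dbl 42 days replicate 1 (Pearson r = 0.958 over 6567 probe sets of higher signal), against 0.597 and 0.791 with the other Dbl arrays of 2 days. Dbl replicate 3 and wt replicate 2 had their highest correlation with each other (r = 0.924), above the 0.807 and 0.818 that each reached with an array of its own group. Dbl replicate 1, in turn, came closest to Dbl 42 days replicate 2, at r = 0.951. The array nearest to wt replicate 1 was wt 14 days replicate 1 (r = 0.914), and that nearest to wt replicate 3 was wt 14 days replicate 2 (r = 0.913). With wt arrays of 2 days, both reached at most 0.863. No array of 2 days was thus closest to an array of its own group. These correlations run across probe sets, which are not independent of each other, so they are descriptions, and all arrays were kept under their labels. The deposited trimmed mean of Dbl replicate 2 was 76.1 and that of the other 5 arrays 500, and the 5′ to 3′ signal ratio of Gapdh ranged from 0.651 to 1.23 over the 6 arrays, with wt replicate 2 lowest.

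**Figure D1:**
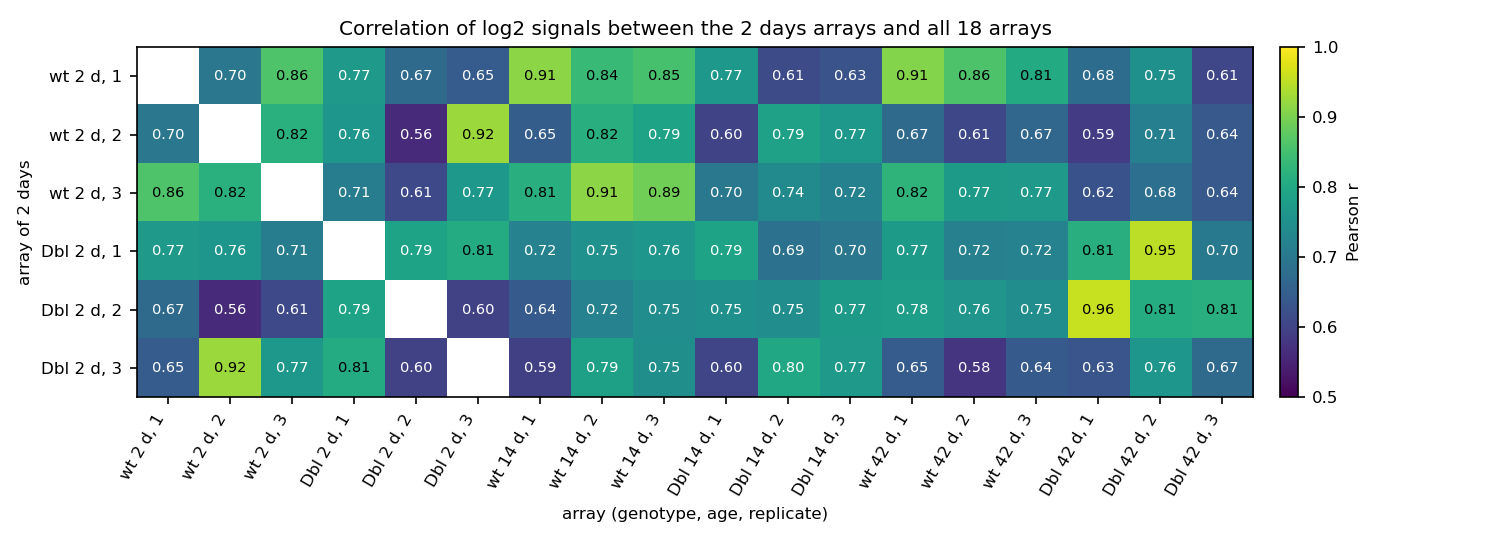
Pearson correlation of log2 signals between each of the 6 arrays of 2 days (rows) and all 18 arrays (columns, by genotype, age in days and replicate), over the 6567 probe sets with a mean signal above 200. Dbl 2 days replicate 2 stands out for 0.958 with a 42 days array, and wt replicate 2 for 0.924 with Dbl replicate 3.

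On a scale built from the 100 probe sets that were highest and the 100 that were lowest in wt lenses of 42 days against 2 days, the wt arrays of 2 days lay at -1.35, -4.09 and -2.71 (mean log2 signal of the first set minus that of the second) and those of 42 days between 1.4 and 2.3. Both ranges are set by the choice of probe sets. Dbl replicate 1 lay at -1.07 and Dbl replicate 3 at -3.20. Dbl replicate 2 lay at 2.37, above every wt array of 42 days. Dbl 42 days replicate 2 lay at -0.65, away from the other Dbl arrays of 42 days at 1.93 and 2.05. On this scale it was nearest to the wt arrays of 14 days, at -0.84, -0.96 and -0.77. Dbl replicate 1 of 2 days, at -1.07, and Dbl 14 days replicate 2, at -0.19, were further off on either side. Whether the replicate 2 arrays of Dbl lenses of 2 and 42 days carry each other's labels was not tested, and if they do, the Dbl values at both ages and the differences between ages given here would change. Counts and log2 fold changes are therefore given with and without Dbl replicate 2.

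With all arrays, 25 probe sets were called at an adjusted p under 0.05, 3 of them higher in Dbl lenses (0.0242% of those tested) and 22 lower (0.177%). They included 19 genes with a symbol of their own, 2 higher and 17 lower, and 6 probe sets that the annotation assigns to several genes or to none. The Dbl and wt arrays of all 25 did not overlap. Without Dbl replicate 2, the same direction was seen for all 25, but only 3 stayed called, 2 higher (0.0161%) and 1 lower (0.00805%), and Ccl2 was the only one of them with a gene symbol. An unadjusted p under 0.05 was found for 1665 probe sets with all arrays and for 1148 without that array. With 3 pools against 3, an exact rank or permutation test of a single gene cannot give a two-sided p below 0.1. Over the 12422 probe sets, the log2 fold change had a median of -0.19, or -0.20 without Dbl replicate 2.

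Ccl2 (chr11:82035577-82037452, GRCm38), the chemokine that draws monocytes into tissue, rose most among the called genes. Its signals were 14.4, 15.6 and 19.2 in wt replicates 1 to 3 and 1350, 686 and 682 in Dbl replicates 1 to 3. All wt arrays were near background and all Dbl arrays far above it. The log2 fold change was 5.72 (SE 0.75, adjusted p = 0.0032 from limma), and 5.88 (SE 0.86, adjusted p = 0.0298) without Dbl replicate 2. Leaving out Dbl replicate 2 thus hardly moved the fold. Dbl replicate 1, which had the highest signal, was itself most like a 42 days array (r = 0.951). Snx12 (chrX:101089367-101222583), a sorting nexin of endosomes, was the other called gene with a higher level, at 57.5, 80.7 and 39.7 in wt and 270, 422 and 296 in Dbl lenses. Its log2 fold change was 2.50 (SE 0.50, adjusted p = 0.0462), and 2.31 (adjusted p = 0.266) without Dbl replicate 2, and a second Snx12 probe set gave 0.83 (adjusted p = 0.463).

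**Figure D2:**
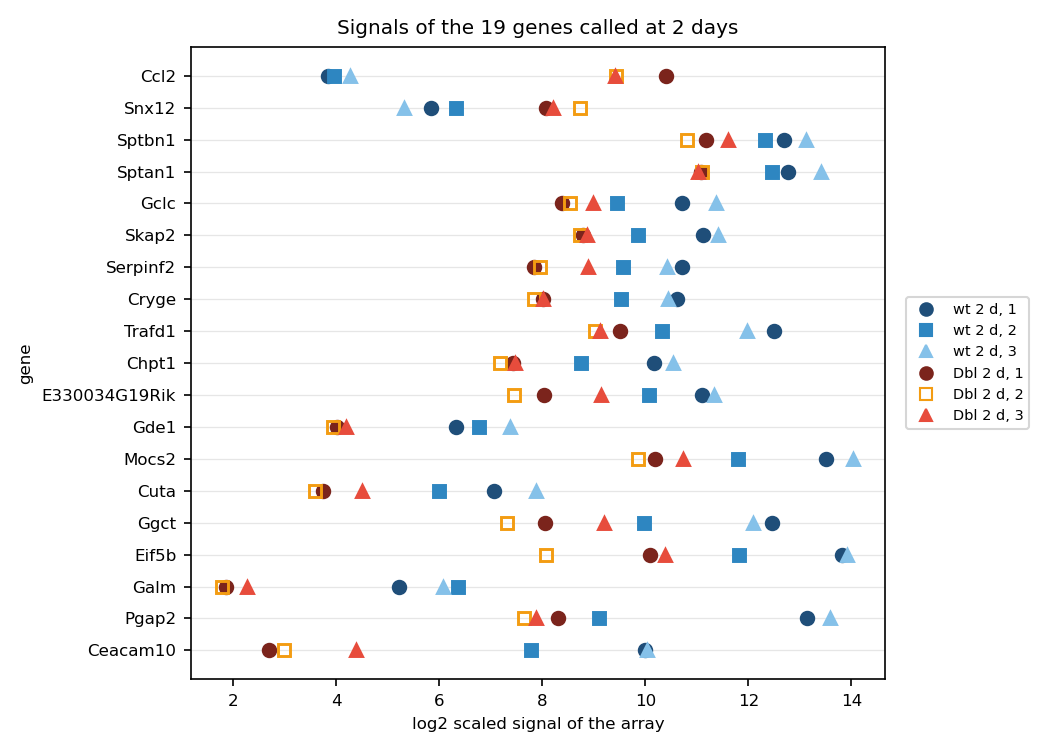
Log2 scaled signal (x axis) of the 19 called genes (y axis, ordered by log2 fold change) on each of the 6 arrays of 2 days, blue for wt and red or orange for Dbl, with the open square for Dbl replicate 2. No Dbl point lies within the wt points of its gene, and wt replicate 2 is the wt point nearest to Dbl for most genes that fell.

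Among the 17 genes that fell, the smallest adjusted p was that of Mocs2 (chr13:114818160-114829420), a subunit of the molybdopterin synthase that makes the molybdenum cofactor. Its signals were 11651, 3562 and 16792 in wt and 1171, 927 and 1702 in Dbl lenses. The highest Dbl array was below the lowest wt array, which was replicate 2. The log2 fold change was -2.85 (SE 0.45, adjusted p = 0.02), and -2.65 (SE 0.50, adjusted p = 0.135) without Dbl replicate 2. Eif5b (chr1:37998010-38055579), which joins the ribosomal subunits at translation start, had signals of 14337, 3599 and 15385 in wt and 1094, 268 and 1325 in Dbl lenses. Its log2 fold change was -3.67 (SE 0.73, adjusted p = 0.0462), and -2.94 without Dbl replicate 2. A second Eif5b probe set of lower signal gave -1.55 (adjusted p = 0.395).

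Chpt1 (chr10:88469513-88503970), which makes phosphatidylcholine, stood at 1157, 432 and 1494 in wt and at 173, 145 and 177 in Dbl lenses (log2 fold change -2.46, SE 0.41, adjusted p = 0.0242). The Dbl pools were within a narrow range of each other, whereas the wt pools spread more than 3-fold. Gclc, the catalytic subunit of the enzyme that starts glutathione synthesis, stood at 1682, 702 and 2656 in wt and at 333, 372 and 503 in Dbl lenses (log2 fold change -1.89, SE 0.37, adjusted p = 0.0462). Ggct, an enzyme of glutathione breakdown, had signals of 5611, 1009 and 4367 in wt and 265, 160 and 585 in Dbl lenses (log2 fold change -3.32, SE 0.64, adjusted p = 0.0462). Glutathione is the main reducing agent of the lens. Without Dbl replicate 2 the log2 fold changes were -2.37, -1.84 and -2.89, with adjusted p of 0.135, 0.219 and 0.241. Pgap2, which remodels the lipid of GPI anchors, had signals of 9037, 551 and 12249 in wt and 315, 199 and 234 in Dbl lenses (log2 fold change -4.01, SE 0.79, adjusted p = 0.0462, or -3.86 without Dbl replicate 2).

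Both chains of nonerythroid spectrin, the tetramer that lines the plasma membrane of fiber cells and ties it to actin, fell. Sptan1, the alpha chain (chr2:29965560-30031451), had signals of 7019, 5650 and 10917 in wt and 2163, 2194 and 2074 in Dbl lenses. Sptbn1, the beta chain (chr11:30099395-30268384), had 6610, 5102 and 8833 in wt and 2321, 1791 and 3110 in Dbl lenses. The log2 fold changes were -1.82 (SE 0.33, adjusted p = 0.0421) and -1.51 (SE 0.29, adjusted p = 0.0434). For these 2 genes wt replicate 2 was not far from the other wt pools. Without Dbl replicate 2 the values were -1.84 (adjusted p = 0.147) and -1.31 (adjusted p = 0.219).

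Ceacam10, a member of the carcinoembryonic antigen family of adhesion molecules, had the most negative fold change of the called genes, with signals of 1015, 221 and 1040 in wt and 6.46, 7.97 and 20.9 in Dbl lenses (log2 fold change -5.91, SE 1.01, adjusted p = 0.0242, or -5.73 without Dbl replicate 2). All Dbl arrays were near background, and a second probe set gave -2.80 (adjusted p = 0.112). Serpinf2, the plasmin inhibitor alpha-2-antiplasmin, Skap2, an adaptor of integrin signaling, and Trafd1, a regulator of innate immune signaling, had log2 fold changes of -2.01, -2.0 and -2.38, and of -1.87, -1.97 and -2.28 without Dbl replicate 2. The other genes that fell were E330034G19Rik at -2.62 and 3 genes that were near background in all Dbl pools, Galm at -3.92, Cuta at -3.03 and Gde1 at -2.77. These 4 stood, when Dbl replicate 2 was left out, at -2.24, -3.83, -2.85 and -2.71, none of them called. Galm had 6 probe sets, of which the other 5 gave log2 fold changes from -1.29 to 1.06, and a second Cuta probe set of higher signal gave 0.54 (adjusted p = 0.714). The last called gene was Cryge, a gamma crystallin, described with its family.

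Crystallins make up most of the protein of a fiber cell. The 4 gamma crystallin genes Crygb, Crygc, Crygd and Cryge are neighbours on chromosome 1 and were low together in Dbl lenses, so the 120 bases before their RefSeq starts are shown (GRCm38.p6, minus strand), with the longest run that all 4 share in capitals. They lie at chr1:65082291-65082410, chr1:65073533-65073652, chr1:65063441-65063560 and chr1:65051164-65051283.
Crygb: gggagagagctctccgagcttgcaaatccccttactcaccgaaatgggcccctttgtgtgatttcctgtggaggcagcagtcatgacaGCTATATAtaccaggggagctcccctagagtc
Crygc: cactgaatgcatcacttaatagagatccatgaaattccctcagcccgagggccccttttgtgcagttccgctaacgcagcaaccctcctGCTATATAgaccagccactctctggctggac
Crygd: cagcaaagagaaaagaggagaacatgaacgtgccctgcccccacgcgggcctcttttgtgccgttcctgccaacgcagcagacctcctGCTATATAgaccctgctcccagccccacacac
Cryge: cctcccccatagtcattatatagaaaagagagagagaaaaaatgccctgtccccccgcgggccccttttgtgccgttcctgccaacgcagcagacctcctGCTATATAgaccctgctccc
The shared run of 8 bases, GCTATATA, holds the TATA box and ends 13 to 25 bases before the annotated starts. It occurs, on either strand, in 0.227% of the 32536 different promoters of the table over the same length.

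The other crystallins that were low together lie on other chromosomes. Cryaa and Cryba1 share no such run with the gamma crystallins, and both have TGCTGAC, the core of a site for the large Maf factors of the lens, shown in capitals in the 120 bases before their starts (chr17:31677811-31677930, plus strand, and chr11:77725294-77725413, minus strand).
Cryaa: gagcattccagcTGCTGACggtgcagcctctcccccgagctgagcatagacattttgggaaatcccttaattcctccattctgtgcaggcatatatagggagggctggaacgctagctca
Cryba1: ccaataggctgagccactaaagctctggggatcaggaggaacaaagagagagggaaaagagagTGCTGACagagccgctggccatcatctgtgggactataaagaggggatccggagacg
Over the same length, 2.01% of promoters hold TGCTGAC on either strand. Cryaa and Cryba1 were chosen as examples, and the site is not described for the other low crystallins, such as Crygs and Crybb2. A match of letters is a description and does not show that a factor binds there.

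All 9 crystallins measured had a lower mean log2 signal in Dbl than in wt lenses, with log2 fold changes from -1.89 to -1.0 and a median of -1.66, against -0.09 for all 8251 genes. For 8 of the 9, all Dbl arrays were below all wt arrays and the ratio of mean signals was at least 1.5. Such a ratio without overlap, in either direction, is called apart here and used as a description. It stands in for the study's rule, a 1.5-fold change with a Mann-Whitney U test on GeneSpring values. Among all genes, 11.4% were apart and lower and 4.87% apart and higher with all arrays, and 14.5% and 7.26% without Dbl replicate 2. None of the 9, each by its probe set of highest signal, was called by limma. Without Dbl replicate 2, 8 were still apart and the median was -1.27. With quantile normalization, which forces the same distribution on every array, 3 were apart and lower, and the Cryge probe set of highest signal turned to 0.21, while Cryaa stood at -0.04.

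Crygb signals were 64416, 49221 and 80107 in wt and 19144, 11660 and 36075 in Dbl lenses (log2 fold change -1.66, SE 0.55, adjusted p = 0.216, or -1.27 without Dbl replicate 2). Crygs, the gamma crystallin of secondary fibers, had signals of 97233, 58190 and 145807 in wt and 40997, 22690 and 28083 in Dbl lenses (-1.66, SE 0.44, adjusted p = 0.114, or -1.47 without Dbl replicate 2). Cryaa, the lens chaperone alpha A crystallin, had 112049, 105080 and 168805 in wt and 51513, 44107 and 78794 in Dbl lenses (-1.16, SE 0.42, adjusted p = 0.253, or -0.98 without Dbl replicate 2). In each of these 3 genes the Dbl pools lay below the wt pools, and Dbl replicate 2 was lowest. Crybb2, the beta crystallin that builds up after birth, was the only crystallin whose groups overlapped, with 99998, 18480 and 121920 in wt and 25504, 28770 and 6180 in Dbl lenses. The 2 arrays that resemble each other, wt replicate 2 and Dbl replicate 3, were the lowest of their groups for it.

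Of the 4 probe sets named for Cryge, the one called by limma had signals of 1577, 734 and 1381 in wt and 257, 230 and 260 in Dbl lenses (log2 fold change -2.23, SE 0.37, adjusted p = 0.0242), and -2.18 (adjusted p = 0.135) without Dbl replicate 2. The probe set of highest signal gave -1.0 (SE 0.42, adjusted p = 0.324), at 90167, 98800 and 135390 in wt and 42154, 42154 and 85124 in Dbl lenses. Gamma crystallins are near-identical, and several of these probe sets are marked by the maker as shared within a gene family, so that a signal may come from more than one gene.

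**Figure D3:**
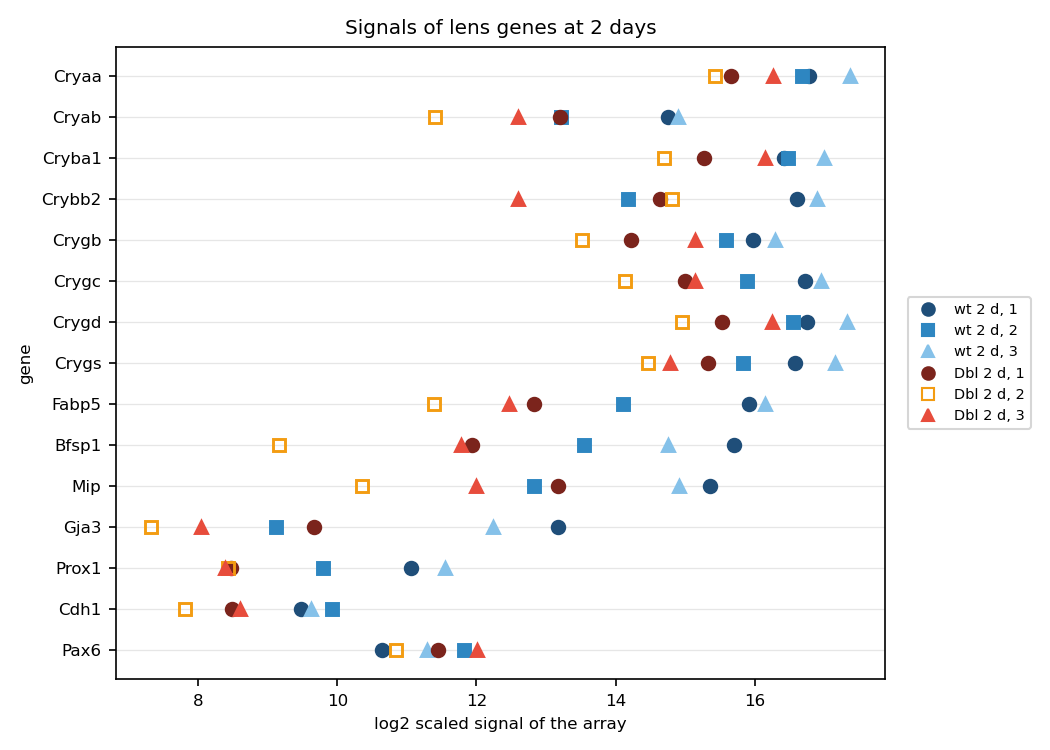
Log2 scaled signal (x axis) of 15 genes of the lens (y axis) on each array of 2 days, blue for wt and red or orange for Dbl, with the open square for Dbl replicate 2. Crystallins and fiber genes lie to the left in Dbl, with wt replicate 2 between the groups for Fabp5, Bfsp1 and Prox1, and the Pax6 points are mixed.

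Fiber cell genes had the lowest median of all the lists described here, -2.37 over 11 genes, and -1.94 without Dbl replicate 2. All 11 were below 0, none was called, and 3 were apart and lower under both settings. These 3 are 27.3% of the list, against 11.4% of all genes, or 14.5% without Dbl replicate 2. Bfsp1, or filensin, of the beaded filaments found only in fiber cells, had signals of 53135, 11945 and 27499 in wt and 3909, 572 and 3507 in Dbl lenses (log2 fold change -3.71, SE 0.96, adjusted p = 0.112, or -2.81 without Dbl replicate 2). Fabp5, a fatty acid carrier, had 61702, 17586 and 72142 in wt and 7296, 2670 and 5666 in Dbl lenses (-3.16, SE 0.65, adjusted p = 0.0565, or -2.73 without Dbl replicate 2). Prox1, the homeobox factor that drives fiber elongation, had 2131, 888 and 2982 in wt and 355, 346 and 336 in Dbl lenses (-2.37, SE 0.60, adjusted p = 0.109, or -2.37 without Dbl replicate 2). The Dbl pools of Prox1 lay close together, so leaving out replicate 2 did not move its fold change. Mip, the water channel aquaporin-0, and Gja3, connexin 46, had log2 fold changes of -2.53 and -3.17, or -1.78 and -2.66 without Dbl replicate 2, but wt replicate 2 was below Dbl replicate 1 for both. The summed signal of the 11 genes was 186497, 56365 and 158958 on the wt arrays and 31728, 8869 and 27869 on the Dbl arrays, so that wt replicate 2 was nearer to Dbl replicate 1 than to the other wt pools.

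Of 20 lens epithelium genes measured, 5 were apart and lower, none was apart and higher, and the median was -0.16. Leaving out Dbl replicate 2 gave 5 lower and 2 higher and a median of 0.02. Sfrp1, a secreted Wnt antagonist, had signals of 2960, 1609 and 1985 in wt and 651, 332 and 664 in Dbl lenses (log2 fold change -2.01, SE 0.69, adjusted p = 0.235, or -1.69 without Dbl replicate 2). Cdh1, the epithelial adhesion molecule E-cadherin, had 712, 969 and 787 in wt and 359, 224 and 389 in Dbl lenses (-1.37, SE 0.32, adjusted p = 0.0881, or -1.13 without Dbl replicate 2). Pax6, the master regulator of eye development, had 1598, 3625 and 2503 in wt and 2789, 1830 and 4101 in Dbl lenses, with the groups mixed and a log2 fold change of 0.18 (SE 0.40, adjusted p = 0.875, or 0.47 without Dbl replicate 2). The defining genes of the lens were thus present on all 6 arrays.

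Of 24 genes of epithelial junctions and keratins, 5 were apart and lower and none higher (6 and 0 without Dbl replicate 2), with a median of -0.50. Tjp1, the tight junction scaffold ZO-1, had signals of 4045, 3774 and 9427 in wt and 1171, 1149 and 3167 in Dbl lenses (log2 fold change -1.69, SE 0.43, adjusted p = 0.109, or -1.44 without Dbl replicate 2). Ctnna2, an alpha catenin that ties cadherins to actin, had 2997, 1450 and 3466 in wt and 900, 850 and 1193 in Dbl lenses (-1.35, SE 0.34, adjusted p = 0.109, or -1.25 without Dbl replicate 2). For both genes the groups were apart with and without Dbl replicate 2. Cdh2, N-cadherin, which fiber cells also use, had 2194, 6955 and 6181 in wt and 2950, 1184 and 7181 in Dbl lenses. Its log2 fold change of -0.64 (SE 0.63) became 0.02 without Dbl replicate 2.

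Basement membrane genes, which build the lens capsule, had, after the crystallins, the highest share apart and lower of the plotted lists with all arrays. Of 24 measured, 9 were apart and lower and 1 higher, or 37.5% lower against 11.4% of all genes, and 10 and 1 were so without Dbl replicate 2. None was called by limma, and the median was -0.74. Col4a1, the alpha 1 chain of collagen IV, had signals of 13034, 13637 and 35289 in wt and 4287, 1322 and 7639 in Dbl lenses (log2 fold change -2.39, SE 0.56, adjusted p = 0.0869), and -1.69 without Dbl replicate 2. Its partner chain Col4a2 had 16866, 3415 and 13110 in wt and 2886, 1372 and 1156 in Dbl lenses (-2.46, SE 0.80, adjusted p = 0.211, or -2.32 without Dbl replicate 2). Itga6, a laminin receptor, had 426, 442 and 1118 in wt and 146, 63.6 and 287 in Dbl lenses (-2.10, SE 0.58, adjusted p = 0.130, or -1.54 without Dbl replicate 2). P4hb, a subunit of the prolyl hydroxylase that collagen folding needs, belongs to the protein folding list and had 8582, 4157 and 8252 in wt and 2466, 927 and 2431 in Dbl lenses (-1.91, SE 0.42, adjusted p = 0.0688, or -1.44 without Dbl replicate 2). Agrn, the heparan sulfate proteoglycan agrin, was the one gene apart and higher, with 605, 698 and 526 in wt and 1298, 892 and 1067 in Dbl lenses (0.83, SE 0.40, adjusted p = 0.377, or 0.96 without Dbl replicate 2).

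Genes of fibroblasts and the interstitial matrix went both ways, 3 of 28 apart and higher and 3 lower (5 and 5 without Dbl replicate 2), with a median of 0.16, and -0.14 without that array. This was 10.7% each way, against 4.87% of all genes higher and 11.4% lower, so the share lower was near that of all genes. Without that array it was 17.9% each way, against 7.26% and 14.5%. The 3 higher were Tgfbi, Tagln and Thy1, and the 3 lower Vim (-1.32), Col6a3 (-1.1) and Pdgfra (-0.98). Col1a1, a type I collagen chain, stood at 0.15 (-0.06 without that array). Tgfbi, a matrix protein that TGF-beta induces, had signals of 27.0, 91.7 and 30.4 in wt and 214, 264 and 112 in Dbl lenses (log2 fold change 2.13, SE 0.91, adjusted p = 0.327, or 1.87 without Dbl replicate 2). Acta2, smooth muscle actin, had 676, 32.4 and 668 in wt and 1476, 626 and 812 in Dbl lenses, so Dbl replicate 2 lay below 2 wt pools. Without it the groups were apart and the log2 fold change was 2.16 (adjusted p = 0.536) in place of 1.89. Among 27 matrix proteases and inhibitors, Timp1 and Plat, a metalloprotease inhibitor and the tissue plasminogen activator, were apart and higher at 1.32 and 0.96 (0.83 and 1.04 without Dbl replicate 2), and Mmp2, a gelatinase, was apart and lower at -3.07 (-3.02), none of them called.

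**Figure D4:**
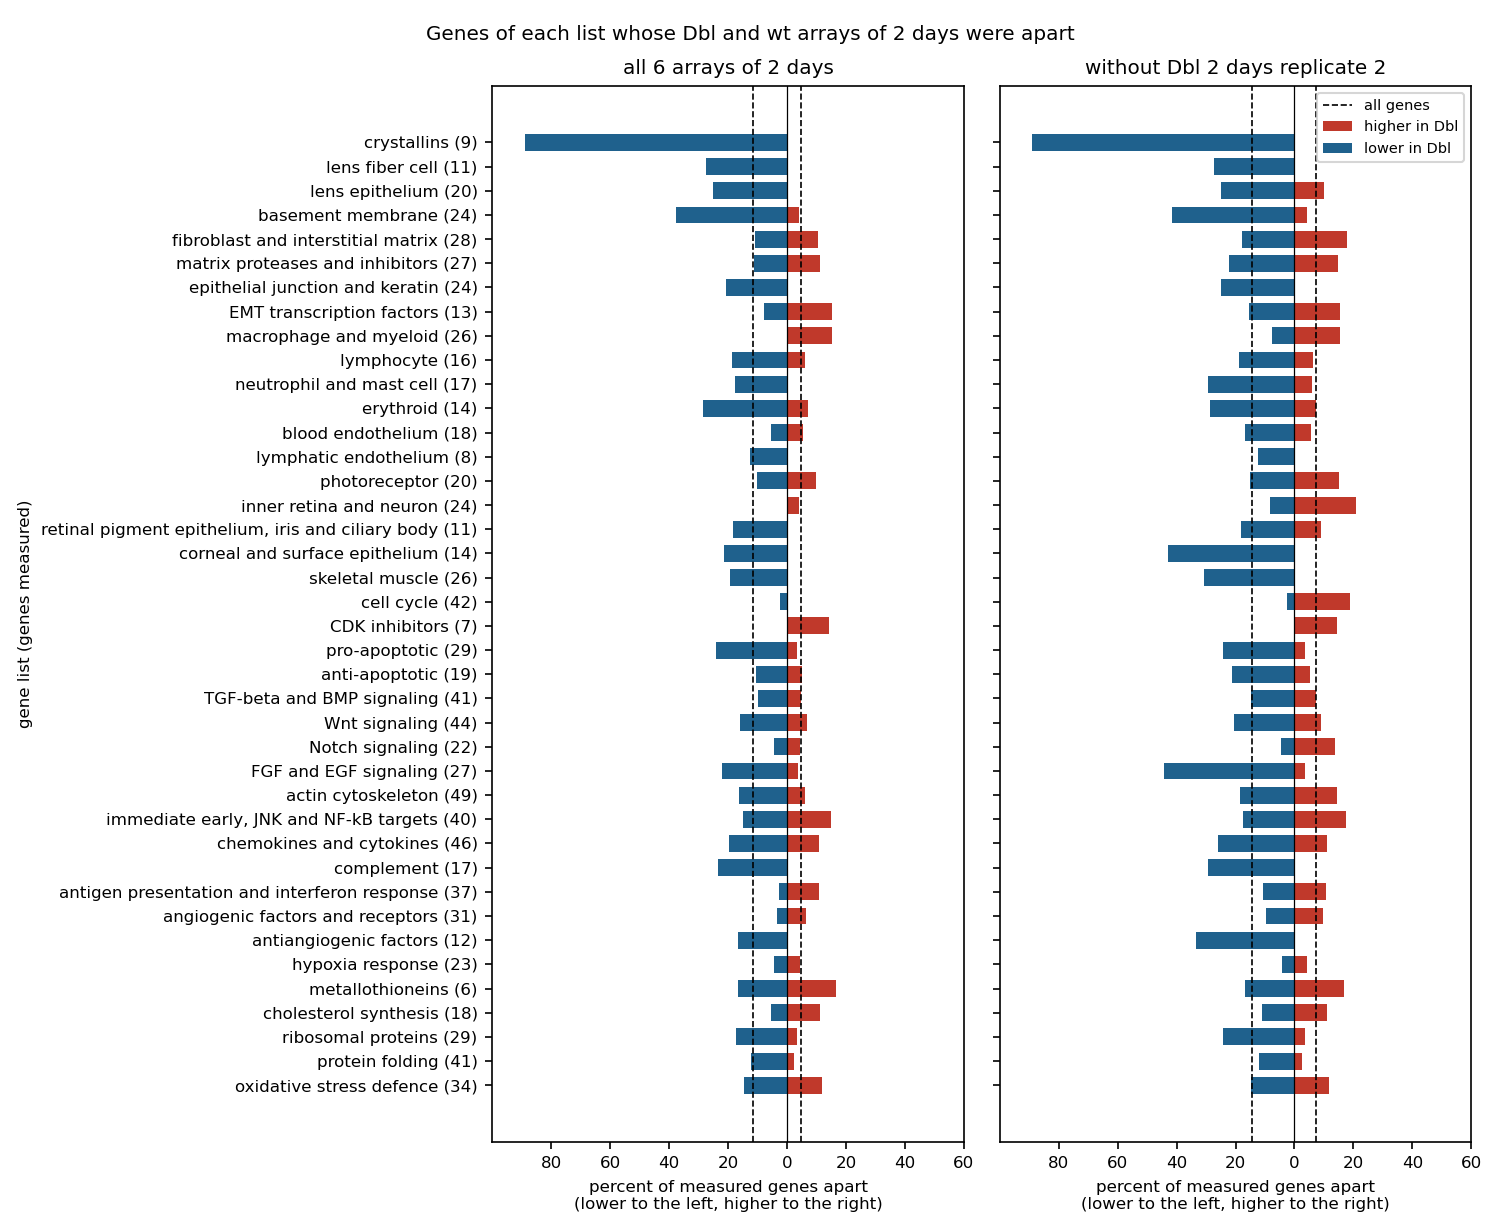
Percent of the measured genes of each list shown (number in brackets) whose Dbl and wt arrays of 2 days were apart, lower to the left and higher to the right, with all arrays (left panel) and without Dbl replicate 2 (right panel). Dashed lines mark the share of all 8251 genes, 11.4% and 4.87% on the left and 14.5% and 7.26% on the right, and the crystallins reach 88.9% lower in both panels.

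Of 46 chemokines and cytokines, Ccl2 alone was called, 5 were apart and higher and 9 lower, and the median was -0.28 (5, 12 and -0.47 without Dbl replicate 2). With all arrays, 10.9% were higher against 4.87% of all genes, and 19.6% lower against 11.4%. The 5 higher were CC chemokines that attract monocytes and macrophages. Ccl4, another CC chemokine, was apart and lower (-1.25, or -1.30 without Dbl replicate 2). The median signal of the list, 66.6, was near background. Ccl9 had signals of 13.7, 63.4 and 30.1 in wt and 1411, 869 and 133 in Dbl lenses (log2 fold change 4.20, SE 0.95, adjusted p = 0.0797), and 3.87 without Dbl replicate 2. Ccl8 had 74.5, 61.0 and 59.4 in wt and 336, 656 and 139 in Dbl lenses (2.27, SE 0.67, adjusted p = 0.154, or 1.74 without Dbl replicate 2). Ccl7 had 8.91, 52.4 and 47.5 in wt and 203, 93.6 and 124 in Dbl lenses (2.24, SE 1.03, adjusted p = 0.359, or 2.50 without Dbl replicate 2). All wt pools of these 3 genes were near background, and Dbl replicate 3 was the lowest Dbl pool for Ccl9 and Ccl8.

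Macrophage and myeloid markers were measured for 26 genes, of which 4 were apart and higher and none lower, with 19 above 0 and a median of 0.51. With Dbl replicate 2 left out, 4 were higher and 2 lower (Fcgr3 and Ptprc), with a median of 0.31. The share higher was 15.4% under both settings, against 4.87% of all genes, or 7.26% without Dbl replicate 2. The share lower without it was 7.69%, against 14.5%. The summed signal of the 26 genes was 3407, 4105 and 3777 on the wt arrays and 7249, 12207 and 3904 on the Dbl arrays, so that Dbl replicate 3 lay within the wt range. Ctss, the lysosomal protease cathepsin S, had signals of 332, 436 and 553 in wt and 1732, 5182 and 627 in Dbl lenses (log2 fold change 2.04, SE 0.80, adjusted p = 0.286, or 1.27 without Dbl replicate 2). Lyz2, lysozyme, had 63.6, 22.9 and 7.62 in wt and 515, 446 and 18.6 in Dbl lenses (2.86, SE 1.11, adjusted p = 0.284, or 2.13 without Dbl replicate 2). Arg1, an arginase of alternatively activated macrophages that other cells also express, had 12.6, 97.6 and 20.9 in wt and 2237, 252 and 321 in Dbl lenses (4.26, SE 0.98, adjusted p = 0.0860), and 4.84 (adjusted p = 0.214) without Dbl replicate 2. On Dbl replicate 3, Ctss was above all wt pools and Lyz2 was not. The part of myeloid cells in these levels was not tested.

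The level of antigen presentation and interferon genes followed Dbl replicate 2. Of 37 measured, 4 were apart and higher and 1 lower, and 4 and 4 without that array, and the median went from 0.27 to -0.22. The shares were 10.8% higher and 2.7% lower, against 4.87% and 11.4% of all genes. Without that array they were 10.8% each, against 7.26% and 14.5%. Psmb8, a subunit of the immunoproteasome, had signals of 47.1, 27.5 and 68.3 in wt and 124, 577 and 114 in Dbl lenses (log2 fold change 2.18, SE 0.68, adjusted p = 0.189), and 1.42 without that array. A probe set of H2-K1, a class I antigen, had 43.3, 36.9 and 41.5 in wt and 277, 828 and 113 in Dbl lenses (2.87, SE 0.67, adjusted p = 0.0874), and 2.13 without it. Another H2-K1 probe set had an adjusted p of 0.222 from limma. The summed signal of the list was 31108 on Dbl replicate 2 and between 7218 and 10355 on the other 5 arrays.

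Cell cycle genes had the widest move of a list's median when Dbl replicate 2 was left out. Of 42 measured, none was apart and higher and 1 lower with all arrays (median 0.24), whereas 8 were higher and 1 lower without Dbl replicate 2 (median 1.17, with 37 above 0), none called under either setting. Their summed signal was 14899, 45697 and 15590 on the wt arrays and 43128, 9073 and 63565 on the Dbl arrays. Dbl replicate 2 was thus the lowest of all and wt replicate 2 the second highest. Rrm1, a subunit of ribonucleotide reductase, had signals of 81.9, 787 and 188 in wt and 1014, 307 and 1130 in Dbl lenses (log2 fold change 1.62, SE 0.92), and 2.22 (adjusted p = 0.534) without Dbl replicate 2. Cdk1, the kinase that starts mitosis, had 204, 2206 and 219 in wt and 1615, 81.5 and 3095 in Dbl lenses, and its log2 fold change went from 0.68 to 2.27. Cdkn2d, an inhibitor of the G1 kinases, moved little, with 206, 615 and 404 in wt and 1008, 1131 and 1025 in Dbl lenses (1.5, SE 0.38, adjusted p = 0.109, or 1.45 without Dbl replicate 2).

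**Figure D5:**
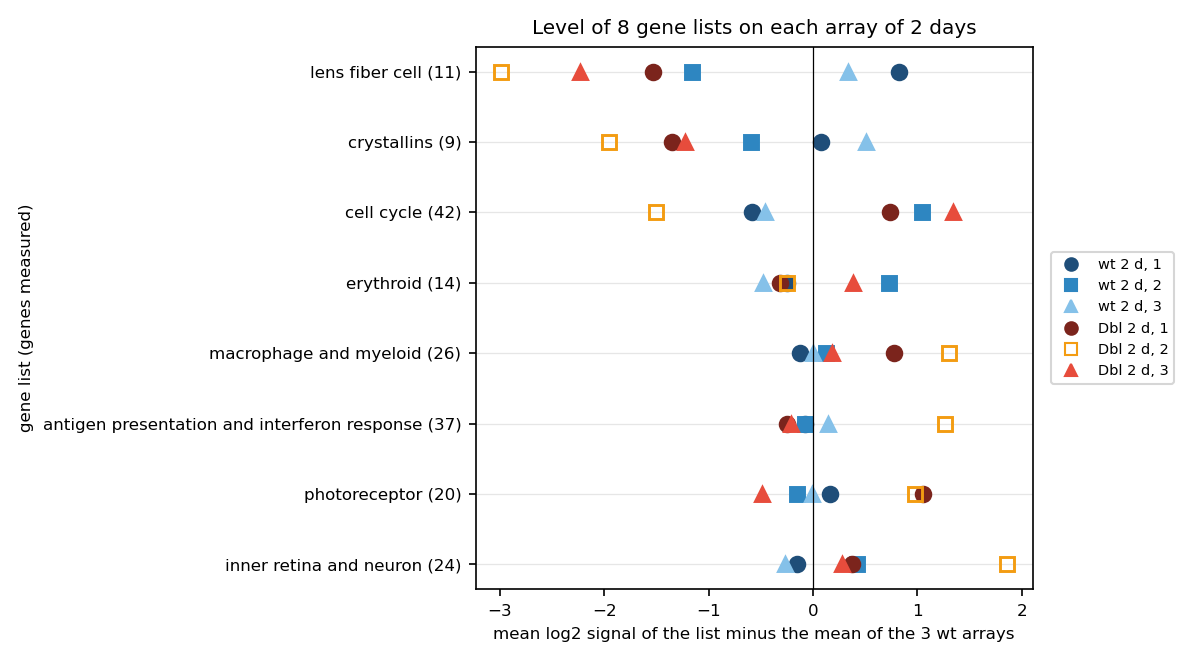
Mean log2 signal of 8 gene lists (y axis, genes measured in brackets) on each array of 2 days minus the mean of the 3 wt arrays (x axis), blue for wt and red or orange for Dbl, with the open square for Dbl replicate 2. Fiber genes and crystallins are low on all Dbl arrays, cell cycle genes are lowest on Dbl replicate 2, and wt replicate 2 lies toward Dbl replicate 3 for fiber, cell cycle and erythroid genes.

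Genes of other tissues of the eye were also uneven among the pools. The 24 genes of inner retina and neurons had a median of 0.89 with all arrays and 0.19 without Dbl replicate 2. With all arrays 1 was apart and higher (4.17%) and none lower, and without that array 5 were higher (20.8%) and 2 lower (8.33%). The shares of all genes were 4.87% higher and 11.4% lower, and 7.26% and 14.5% without that array. Snap25, a protein of synaptic vesicle release, had signals of 1424, 1352 and 2116 in wt and 2081, 12743 and 1555 in Dbl lenses, and its log2 fold change went from 1.11 to 0.17. Thy1, a surface protein of neurons and fibroblasts, had 57.9, 142 and 36.4 in wt and 286, 3098 and 188 in Dbl lenses (3.04, SE 1.32, adjusted p = 0.333, or 1.79 without Dbl replicate 2). The 20 photoreceptor genes had a median of 0.87 and of 0.39 without Dbl replicate 2. Their summed signal was 7820 to 10772 in wt and 23099, 26121 and 7368 in Dbl lenses. They were split, with 2 apart and higher and 2 lower, and 3 and 3 without Dbl replicate 2. Cnga1 was among those lower (-2.46, or -2.21 without Dbl replicate 2). Gngt2, the transducin gamma chain of cones, had 6, 26.5 and 20.2 in wt and 545, 462 and 122 in Dbl lenses (4.41, SE 1.10, adjusted p = 0.104, or 4.12 without Dbl replicate 2). Hba-a1, a hemoglobin chain, was high on the 2 arrays that resemble each other, with 1852, 16591 and 820 in wt and 7090, 6729 and 21694 in Dbl lenses. Its log2 fold change was 1.79, or 2.08 without Dbl replicate 2. Of 14 erythroid genes, 1 was apart and higher and 4 lower under both settings. With all arrays this was 28.6% lower against 11.4% of all genes, and the median was -0.26 (-0.53 without Dbl replicate 2). The part of retina or blood in these pools was not tested.

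Of 29 pro-apoptotic genes, 7 were apart and lower and 1 higher under both settings, or 24.1% lower against 11.4% of all genes with all arrays, and none was called. Without Dbl replicate 2 the share of all genes was 14.5%. The 1 higher was Casp8, caspase 8 (1.90, or 1.99 without Dbl replicate 2). Fas, a death receptor, had signals of 302, 26.1 and 467 in wt and 7.06, 6 and 13.5 in Dbl lenses (log2 fold change -4.22, SE 1.11, adjusted p = 0.114, or -3.98 without Dbl replicate 2), with all Dbl pools near background. Cideb, a protein of lipid droplets and cell death, had 339, 204 and 220 in wt and 25, 132 and 28.1 in Dbl lenses (-2.45, SE 0.87, adjusted p = 0.243), and -3.22 without Dbl replicate 2. Bid, which carries the death signal to mitochondria, had 342, 396 and 505 in wt and 172, 157 and 191 in Dbl lenses (-1.24, SE 0.47, adjusted p = 0.270, or -1.17 without Dbl replicate 2). Of 19 genes listed as anti-apoptotic, 1 was apart and higher and 2 lower, with a median of 0.14, and 1 and 4 without Dbl replicate 2, with a median of 0.00. With all arrays these were 5.26% and 10.5%, near the 4.87% and 11.4% of all genes. The 1 higher was Bnip3 (0.88, or 0.72 without Dbl replicate 2), a BH3 protein that can also promote cell death, so it is no clear anti-apoptotic gene. Bcl2 was one of those lower, with 1022, 695 and 836 in wt and 381, 365 and 503 in Dbl lenses (-1.03, SE 0.33, adjusted p = 0.202, or -0.94 without Dbl replicate 2).

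Of 49 actin cytoskeleton genes, 2 were called lower, the spectrins above, 3 were apart and higher and 8 lower, and the median was 0.00. The shares apart were 6.12% and 16.3%, against 4.87% and 11.4% of all genes. Leaving out Dbl replicate 2 gave 7 higher and 9 lower (14.3% and 18.4%, against 7.26% and 14.5%) and a median of 0.14. Fhod3, a formin that builds actin filaments, had 73.3, 116 and 64.4 in wt and 448, 222 and 277 in Dbl lenses (log2 fold change 1.88, SE 0.74, adjusted p = 0.290, or 2.10 without Dbl replicate 2).

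Immediate early genes and targets of JNK and NF-kB were split, 6 of 40 apart and higher and 6 lower (7 and 7 without Dbl replicate 2). That is 15.0% each way, against 4.87% of all genes higher and 11.4% lower. Without Dbl replicate 2 it was 17.5% each way, against 7.26% and 14.5%. Ier2, an early response gene, had signals of 135, 311 and 104 in wt and 884, 517 and 441 in Dbl lenses (log2 fold change 1.84, SE 0.46, adjusted p = 0.104, or 1.93 without Dbl replicate 2). Atf3, a stress-induced factor, had 181, 198 and 48.1 in wt and 307, 519 and 282 in Dbl lenses (1.57, SE 0.59, adjusted p = 0.270, or 1.30 without Dbl replicate 2), while Gadd45b, a stress sensor, went the other way with 3843, 1976 and 5922 in wt and 445, 328 and 629 in Dbl lenses (-2.98, SE 0.61, adjusted p = 0.0521, or -2.75 without Dbl replicate 2). Nfkbia, the NF-kB inhibitor that NF-kB itself induces, had 230, 611 and 299 in wt and 932, 786 and 778 in Dbl lenses (1.25, SE 0.43, adjusted p = 0.227, or 1.29 without Dbl replicate 2).

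In FGF and EGF signaling, which drives fiber differentiation, 6 of 27 genes were apart and lower and 1 higher with all arrays. The share lower was 22.2% against 11.4% of all genes. Without Dbl replicate 2 the counts were 12 and 1, or 44.4% lower against 14.5% of all genes. The median signal of the list, 102.3, was near background. Fgfr2, a receptor that lens cells need, had signals of 2915, 1246 and 3091 in wt and 863, 658 and 978 in Dbl lenses (log2 fold change -1.45, SE 0.44, adjusted p = 0.174, or -1.29 without Dbl replicate 2). Dusp6, a phosphatase that FGF signaling induces and that acts against ERK, was the one gene apart and higher, with 296, 549 and 108 in wt and 1262, 1468 and 1123 in Dbl lenses (2.29, SE 0.57, adjusted p = 0.104, or 2.19 without Dbl replicate 2). Of 44 Wnt genes, 3 were apart and higher and 7 lower (4 and 9 without Dbl replicate 2). These were 6.82% and 15.9%, close to the 4.87% and 11.4% of all genes. Without Dbl replicate 2 they were 9.09% and 20.5%, against 7.26% and 14.5%. The ligands Wnt1 (-1.36, or -1.39 without Dbl replicate 2) and Wnt6 (-1.65, or -1.73) were among those lower. The 3 higher were Sfrp4 (1.51, or 1.59), Dvl3 (1.54, or 1.0) and Nlk (0.83, or 0.91). Dll1, a Notch ligand, was apart and higher, with 37.1, 348 and 38.1 in wt and 1033, 407 and 454 in Dbl lenses (2.87, SE 0.91, adjusted p = 0.197, or 3.12 without Dbl replicate 2).

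The gene categories that the study chose on these samples are no independent evidence of a direction, and their counts are given for completeness. They cover the genes that could be matched to a probe set, and 5 were not. Among all genes, 11.4% were apart and lower and 4.87% higher, and 14.5% and 7.26% without Dbl replicate 2. At 2 days, 9 of 11 eye development genes were apart and lower and none higher, and 7 of 18 adhesion and matrix genes were lower and 3 higher. Of 18 genes in the EMT list 8 were lower and 2 higher, and of 7 pro-apoptotic genes 5 were lower and none higher. Of 8 angiogenesis genes, 2 were higher, Ccl2 and Plat, and 1 lower (3 and 1 without Dbl replicate 2). Of 10 TGF-beta genes 3 were higher and 2 lower, of 14 Wnt genes 5 and 5, of 8 Notch genes 1 and 0 (3 and 0 without Dbl replicate 2) and of 2 anti-apoptotic genes 1 and 0. The study lists 5 anti-apoptotic genes, and only these 2 were matched, with log2 fold changes of 0.18 and 2.40. Bnip2, one of the 5 listed, gave -0.55 by its probe set of highest signal (-0.40 without Dbl replicate 2). With that array left out the EMT list had 8 lower and 3 higher, and the counts of the other categories did not move. Cldn5, placed by the study in its Wnt category and known as the tight junction protein of endothelium, had signals of 222, 48.2 and 48.0 in wt and 420, 528 and 256 in Dbl lenses (log2 fold change 2.26, SE 0.86, adjusted p = 0.271, or 2.03 without Dbl replicate 2).

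The Dbl effect at 2 days was also set against that at 14 and 42 days, where each age has its own 3 wt and 3 Dbl arrays. No probe set was called for a difference between 2 and 14 days (399 had an unadjusted p under 0.05 from limma) or between 2 and 42 days (209), and none without Dbl replicate 2 (349 and 192), so no gene was shown to be particular to 2 days. Of the 19 called genes, 18 had the same sign at 14 days and all 19 at 42 days. Ccl2 stood at 6.19 and 4.72 (log2 fold change at 14 and 42 days), Mocs2 at -2.87 and -2.95 and Chpt1 at -2.02 and -2.31. Galm was the exception, with -3.92 at 2 days and 0.61 at 14 days, and that difference had an adjusted p of 0.999. The spectrins Sptan1 and Sptbn1 were at -0.72 and -0.61 at 14 days, and Gde1 at -0.80, closer to 0 than at 2 days, and these differences were not called.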

How the data were processed

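RNA of pooled whole lenses was measured on 18 one-colour Affymetrix U74Av2 arrays, 3 for each genotype at 2, 14 and 42 days. The deposited intensity values are linear signals, 1 per probe set, which the authors made with Affymetrix Microarray Suite 5.0; their later GeneSpring normalization is not in them. Of the 18 arrays 11 had a trimmed mean near 500 and 7 between 24.2 and 95.1, so each was scaled to a 2% trimmed mean of 500, 153 values under 1 were set to 1, and log2 was taken. Precision is limited by the small number of arrays. Of 12488 probe sets, 66 controls were left out. Platform annotation gives 10833 probe sets 1 symbol, 396 several and 1193 none, which makes 8251 genes, each represented in lists by its probe set of highest signal. A model with 6 group means was fitted to all 18 arrays (limma 3.58.1, R 4.3.3, eBayes with a variance trend; 12 residual and 5.75 prior degrees of freedom) and tested on simulated data. Tables used Python 3.11.15. The p-values measure the spread between pools. The members and lists were chosen with earlier results of these data known. Named are all called genes, the 10 largest fitted changes each way without overlap and with a signal above the median probe set, up to 4 genes of each list with the smallest p, and genes the study lists. Agrn, Pax6, Cdk1, Top2a, Mt2, Crygd, Snap25, Nfkbia, Fcgr3, Ptprc, Vim, Col6a3, Pdgfra, Casp8, Sfrp4 and Dvl3 were added after their values were seen. Same-numbered wt and Dbl arrays of 2 days correlated at 0.348, -0.429 and 0.061 in their deviations, so the numbers do not pair them. Alternatives covered scaling, floor, pseudocount, filter, model and single arrays left out. One gene list is not reported here.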

Additional observations from a re-analysis of the deposited data

How the results depend on the processing

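The calls of 3 higher and 22 lower probe sets rest on few arrays and on the model. Leaving out 1 array of 2 days at a time gave from 2 to 58 higher and from 1 to 115 lower. Without Dbl replicate 3 there were 58 and 99 and without wt replicate 2 there were 33 and 115, these being the 2 arrays that resemble each other, while leaving out any of the other 4 left 2 higher and 1 or 2 lower. Without both Dbl 2 days replicate 2 and Dbl 42 days replicate 2 none was called either way (1190 had an unadjusted p under 0.05 from limma), and without wt and Dbl replicate 2 of 2 days, a choice made after seeing the data, 30 were higher and 59 lower. Scaling to the same median gave 2 and 1, quantile normalization 3 and 11, a floor at the 40th percentile 1 and 15, no variance trend 3 and 12, the 6 arrays of 2 days alone 1 and 0 (919 lower at an unadjusted p under 0.05), and the brighter probe sets alone 8 and 38. Array weights, which gave Dbl replicate 1 a weight of 3.55 and Dbl replicate 3 one of 0.482, called 695 and 1038, and 30 for the difference from 14 days. With the replicate number as a block there were 46 higher and 119 lower, and not every array correlated best with its own number. The rule called apart, which stands in for that of the study's methods and holds no test, passed 532 probe sets higher and 1556 lower. Genes apart went from 402 higher and 944 lower to 599 and 1198 without Dbl replicate 2, and to 1001 and 1490 without wt replicate 2, also chosen after seeing the data. The causes were not tested.

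Ccl2 lost its call in 2 of 17 alternatives, with the floor and without the 2 Dbl arrays (adjusted p up to 0.0831), and the other called genes in 7 to 11 of 16 or 17 (up to 0.378), with no change of direction. Uncalled genes did change direction. With 1 or more arrays of 2 days left out, the log2 fold change ranged from -1.28 to 0.32 for Cdh2 (0.02 without Dbl replicate 2, also with Dbl 42 days replicate 2 left out), from -0.94 to 1.19 for Mt2 (-0.64 likewise), from -0.35 to 3.4 for Cdk1, from -0.96 to 3.76 for Top2a and from -0.13 to 0.76 for Pax6. The lower values came without Dbl replicate 3 for Cdk1 and Top2a, with -0.35 and -0.48 for Top2a without replicate 1 of Dbl or wt, and without wt replicate 1 or Dbl replicate 3 (-0.11) for Pax6. Cryge, by its probe set of highest signal, was at 0.21 with quantile normalization. Signals near background limit the size of the folds of Ccl2, Snx12, Galm, Cuta, Gde1 and Ceacam10.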

Other observations

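Genes of stress defence went both ways at 2 days. Of 34 genes of oxidative stress defence, 1 was called lower (Gclc), 4 were apart and higher and 5 lower, with and without Dbl replicate 2. The shares apart were 11.8% and 14.7%, against 4.87% and 11.4% of all genes, or 7.26% and 14.5% without Dbl replicate 2. Hmox1, heme oxygenase, had signals of 39960, 5492 and 27497 in wt and 4177, 2553 and 2233 in Dbl lenses (log2 fold change -2.66, SE 0.65, adjusted p = 0.104 from limma, or -2.58 without Dbl replicate 2). Gstm1, a glutathione transferase, had 20945, 9174 and 18939 in wt and 7900, 6078 and 4399 in Dbl lenses (-1.37, SE 0.39, adjusted p = 0.141, or -1.38 without Dbl replicate 2). Gsta4, a transferase that clears lipid peroxidation products, went the other way with 61.2, 53.1 and 37.4 in wt and 219, 508 and 162 in Dbl lenses (2.41, SE 0.70, adjusted p = 0.145, or 1.93 without Dbl replicate 2).

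The transgene is under a mouse metallothionein promoter. Of 6 metallothioneins and related genes, 1 was apart and higher and 1 lower under both settings. With so few genes this is 16.7% each way, against 4.87% and 11.4% of all genes, or 7.26% and 14.5% without Dbl replicate 2. Mt1 had signals of 460, 50 and 316 in wt and 1103, 8272 and 301 in Dbl lenses, and Mt2 had 2605, 1257 and 2116 in wt and 1749, 10833 and 852 in Dbl lenses. Dbl replicate 2 was the highest array for both. Their log2 fold changes were 2.85 and 0.41 with all arrays, and 1.57 and -0.64 without it (adjusted p = 0.565 and 0.815 from limma). Mt3 was apart and higher under both settings, at 479, 314 and 488 in wt and 943, 1549 and 898 in Dbl lenses (1.39, SE 0.65, adjusted p = 0.366, or 1.14 without Dbl replicate 2). The transgene's own RNA was not analysed here.

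Of 26 genes of skeletal muscle, 5 were apart and lower and none higher, and 8 and 0 without Dbl replicate 2. Of 17 genes of neutrophils and mast cells, 3 were lower and none higher, and 5 and 1 without that array. The shares lower were 19.2% and 17.6%, against 11.4% of all genes. Without Dbl replicate 2 they were 30.8% and 29.4%, against 14.5%. Both lists had a median signal near background, 89.4 and 104.8.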
